A study of Homo sapiens with 34 samples.

Results

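Stable distal H3K27ac elements were chosen by H3K27ac peak calls alone. The 6 H3K27ac peak lists were pooled over chromosomes 1 to 22 and X, intervals that shared at least 1 bp were merged, and a merged region was kept when all 6 lists contributed to it, when it was under 15000 bp long and when it lay over 2500 bp from every annotated start site of a protein-coding gene. This gave 14050 elements of 100382 merged regions (13.997%). They were 49.1% of the 28618 regions to which all 6 lists contributed. The longest elements spanned 14940 to 14993 bp and the shortest regions left out for length 15002 to 15024 bp. The elements nearest to a start site lay 2504 to 2511 bp away, and the nearest regions left out lay 2496 to 2500 bp away. A further 4799 distal regions of the same lengths were present in 5 lists, and 33179 in 1 list. Because the rule used H3K27ac in both treatments, H3K27ac values of the elements are given as a description, without a test.

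The lists came from chromatin immunoprecipitation and sequencing (ChIP-seq) in KELLY, a MYCN-amplified cell line of human neuroblastoma. The cells carried a hairpin RNA against RUNX1T1 that doxycycline switches on. One arm received the solvent DMSO and the other doxycycline, each for 72 h, and both arms carried the inducible hairpin. H3K27ac, H3K4me1, H3K4me2, H3K4me3 and H3K27me3 were each profiled in 3 libraries per treatment, and peaks had been called in each library against input chromatin. Doxycycline with a control hairpin was not analysed here, so the drug and the knockdown cannot be told apart, and RUNX1T1 itself was not measured by these files. Nothing in the labels says that replicates were separate cultures, so the tests below measure only the spread between libraries.

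Calling depth ran from 57.0 to 63.4 M reads in doxycycline against 71.9 to 81.1 M in DMSO, and the replicate 1 and 3 lists of a treatment were called against inputs of the same read total. In H3K27me3, 3 libraries (DMSO replicates 2 and 3 and doxycycline replicate 3) had estimated fragment lengths of 105 to 112 bp, against 256 to 280 bp in the other 3. H3K4me2 lists of replicate 1 held 88427 (DMSO) and 86420 (doxycycline) peaks, against 51860 to 61379 in the other 4. Depth moved with the treatment and H3K4me2 list length with the replicate number, whereas the short H3K27me3 fragments occurred in both treatments. With lists cut to equal length, doxycycline minus DMSO in the share of elements was −1.43 percentage points for H3K4me2 in place of −1.39, and turned from −1.01 to 0.268 for H3K4me1. The part of the fragment lengths in the results was not tested.

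H3K27ac is an acetyl mark set on histone H3 at active enhancers and promoters by the acetyltransferases CBP and p300. Enhancers are bound by transcription factors, act on genes at a distance and usually carry H3K4me1, with H3K4me2 on the stronger ones, whereas H3K4me3 marks sites where transcription starts and H3K27me3 is laid down by the Polycomb complex at silenced genes. RUNX1T1 (also called ETO) belongs to a family of corepressors that work with histone deacetylases. In neuroblastoma, large sets of enhancers are held by adrenergic factors such as HAND2 and GATA3, which specify the sympathetic lineage.

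Each element was given its rank by the highest −log10 q of its peaks in each list, as a percentile among the 28618 regions of all 6 lists, where 100 is the strongest. The 6 elements with the highest mean percentile had means from 99.6 to 99.9, and 5 of these 6 held annotated starts of non-coding genes. The element at chr13:91346701-91353092 held the start of MIR17HG, the host transcript of the oncogenic miR-17-92 cluster, and the 6 hairpins of that cluster. Its fold enrichment over input was 17.2, 15.9 and 8.84 in DMSO replicates 1 to 3 and 27.9, 18.9 and 11.3 in doxycycline replicates 1 to 3. The groups overlapped. The element at chr12:62601334-62605409 held MIRLET7I and its host. MIR1915HG started in the top element (chr10:21495133-21497896), DLEU2, host of the tumour suppressor miR-15a/16-1 cluster, in that at chr13:50121902-50127637, and LINC01003 in that at chr7:152462710-152465818. The remaining element, at chr22:41020037-41023525, held no annotated start and lay 53.8 kb from the nearest coding one, that of RBX1. H3K4me2 and H3K4me3 were called at all 6 elements in all 6 libraries.

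One mature miRNA of each hairpin of the miR-17-92 cluster and of let-7i is shown, because these hairpins lie inside the strongest elements. Sequences are from RefSeq (GRCh38.p14), 5′ to 3′, with the seed (bases 2 to 8) in capitals. miR-17-5p and miR-20a-5p share 1 seed, and miR-19a-3p and miR-19b-3p share another.
hsa-miR-17-5p: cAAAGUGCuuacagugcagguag
hsa-miR-20a-5p: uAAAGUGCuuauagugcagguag
hsa-miR-18a-5p: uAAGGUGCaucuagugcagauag
hsa-miR-19a-3p: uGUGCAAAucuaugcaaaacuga
hsa-miR-19b-3p: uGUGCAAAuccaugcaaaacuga
hsa-miR-92a-3p: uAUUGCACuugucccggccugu
hsa-let-7i-5p: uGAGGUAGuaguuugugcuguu

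In all, 68 of the 1558 hairpins in the RefSeq table lay inside 55 elements, and 25 of those 55 had H3K4me3 in all 6 libraries. Their median H3K27ac percentile was 50.7, against 29.9 over all elements. Of miRNAs known for roles in neurons, named after their values had been seen, MIR9-1 lay at a percentile of 64.9, MIR9-3 at 55.5, MIR132 and MIR212 at 70.8 and MIR137 at 21.8.

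Central 300 bases of 5 elements are shown to set strong, start-like elements beside an element of a lineage factor and beside the elements that moved most between treatments. Positions are on the plus strand of hg38. The midpoint of a merged broad region is not a summit. Capitals mark any match, on either strand, to the 7 motifs spelled out with the sequence features at the end. The SDK2 and SERINC5 windows were picked after their values had been seen.
Strong element, chr22:41021632-41021931 (nearest start RBX1): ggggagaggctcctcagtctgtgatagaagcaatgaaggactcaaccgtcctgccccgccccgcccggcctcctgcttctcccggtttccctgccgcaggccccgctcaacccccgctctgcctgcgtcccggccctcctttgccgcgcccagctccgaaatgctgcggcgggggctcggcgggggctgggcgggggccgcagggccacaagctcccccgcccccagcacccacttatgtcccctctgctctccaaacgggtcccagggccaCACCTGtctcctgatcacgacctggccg
Strong element with DLEU2, chr13:50124620-50124919 (nearest coding start KCNRG): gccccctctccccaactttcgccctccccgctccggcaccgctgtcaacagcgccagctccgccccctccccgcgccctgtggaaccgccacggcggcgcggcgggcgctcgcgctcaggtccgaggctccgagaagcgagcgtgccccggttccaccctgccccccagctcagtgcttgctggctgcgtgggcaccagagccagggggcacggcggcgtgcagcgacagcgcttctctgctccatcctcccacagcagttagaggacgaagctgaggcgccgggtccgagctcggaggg
HAND2 element, chr4:173486841-173487140: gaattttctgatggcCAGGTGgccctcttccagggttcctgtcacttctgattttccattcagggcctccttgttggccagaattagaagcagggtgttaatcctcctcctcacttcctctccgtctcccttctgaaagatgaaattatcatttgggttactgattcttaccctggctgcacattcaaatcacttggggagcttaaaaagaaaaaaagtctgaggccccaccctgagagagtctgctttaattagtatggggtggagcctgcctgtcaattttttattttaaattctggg
SDK2 element, higher in doxycycline, chr17:73532717-73533016: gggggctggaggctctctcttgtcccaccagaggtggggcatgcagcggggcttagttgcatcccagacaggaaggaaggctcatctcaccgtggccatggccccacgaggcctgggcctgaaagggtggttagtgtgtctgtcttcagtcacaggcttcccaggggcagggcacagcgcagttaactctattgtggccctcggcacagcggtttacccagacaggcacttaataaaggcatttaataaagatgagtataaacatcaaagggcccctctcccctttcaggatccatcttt
SERINC5 element, lower in doxycycline, chr5:80204474-80204773: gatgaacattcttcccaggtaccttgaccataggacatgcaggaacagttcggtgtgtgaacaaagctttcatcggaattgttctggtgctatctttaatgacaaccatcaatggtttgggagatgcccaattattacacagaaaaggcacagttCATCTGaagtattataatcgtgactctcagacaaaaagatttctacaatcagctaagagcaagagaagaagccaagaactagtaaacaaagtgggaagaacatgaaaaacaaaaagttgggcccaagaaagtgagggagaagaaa

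The windows of the strong elements held 71.0% (RBX1) and 73.3% (KCNRG) G and C, with 23 and 33 CpG. The HAND2 window had 45.3%, with 1 CpG. The SDK2 window held 56.0% with 6 CpG and the SERINC5 window 40.0% with 3 CpG. The RBX1 window held 1 E-box match (CAGGTG on the minus strand, bases 273 to 278), the HAND2 window another on the plus strand (bases 16 to 21) and the SERINC5 window 1 match to CAGATG on the minus strand (bases 156 to 161).

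The elements had a median length of 3330 bp (25th to 75th percentile 2160 to 5268 bp) and covered 58.2 Mb. The median distance to a coding start was 34.7 kb. Of the 14050, 2745 (19.5%) lay within 10 kb, 5588 (39.8%) between 10 and 50 kb, 2142 (15.2%) between 50 and 100 kb, 3082 (21.9%) between 100 and 500 kb and 493 (3.51%) farther away. Midpoints fell in introns of protein-coding genes in 6064 (43.2%), between genes in 4826 (34.3%), in introns of other genes in 2170 (15.4%) and in exons of any gene in 990 (7.05%). In the 13328 stable proximal regions, which met the same rule except that they touched or lay within 2500 bp of a start site, 40.0% of midpoints were exonic and 9.77% intergenic. Elements were densest on chromosome 22 (8.56 per Mb) and chromosome 17 (7.999 per Mb), and sparsest on the X chromosome (1.63 per Mb). Copy number of these chromosomes was not measured.

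H3K4me1 accompanied nearly every element. A peak of this mark touched 98.6, 96.3 and 96.9% of elements in DMSO replicates 1 to 3 and 98.0, 94.9 and 95.9% in doxycycline replicates 1 to 3. It was called in all 6 libraries at 12934 elements (92.1%), and 119 elements had H3K4me1 in no library. H3K4me2 was called at 92.8, 70.6 and 62.1% of elements in DMSO and at 83.3, 65.3 and 72.8% in doxycycline, and within each treatment the highest share was that of replicate 1, whose lists were also the longest. H3K4me3 was called at 30.01, 31.1 and 22.98% in DMSO and at 30.4, 29.03 and 20.2% in doxycycline, with 2536 elements (18.0%) marked in all 6 libraries and 8751 (62.3%) in none. H3K27me3 was rare, at 1.61, 1.14 and 2.57% in DMSO and at 1.95, 1.48 and 1.35% in doxycycline. The 3 libraries with long fragments gave 1.61, 1.95 and 1.48%, within the range of the other 3.

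**Figure D1:**
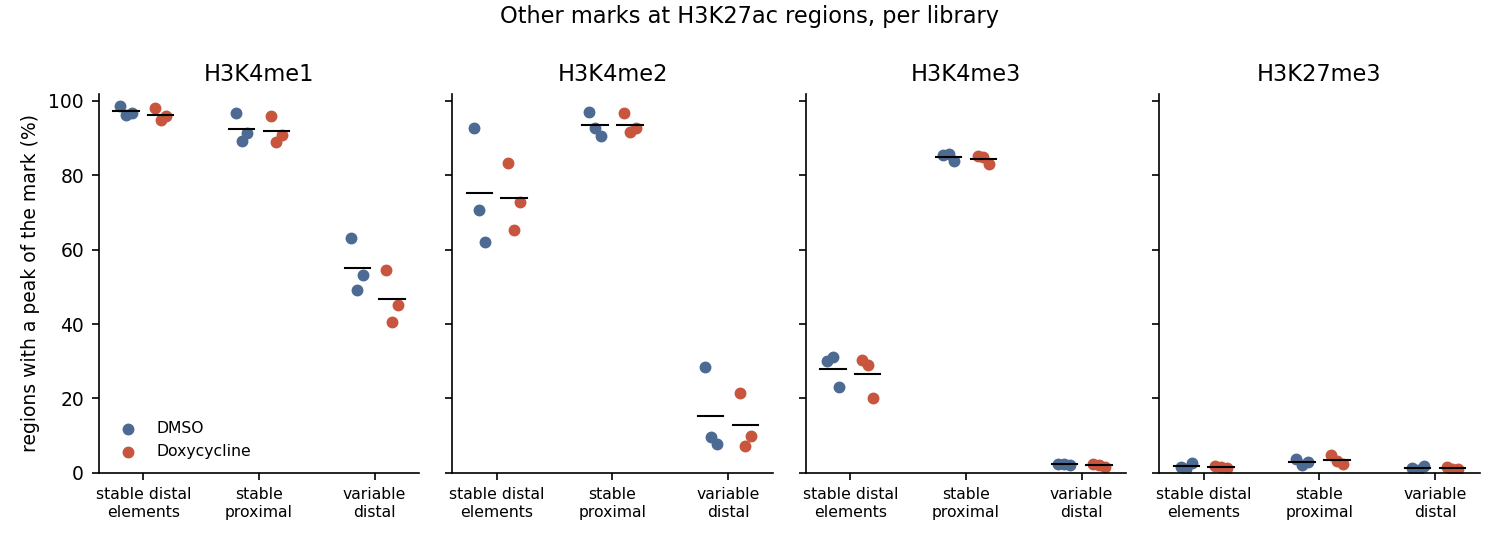
Share of regions (y axis, %) with a peak of each mark (panels) in 3 DMSO and 3 doxycycline libraries (points, with group means as lines), for the stable distal elements, stable proximal regions and variable distal regions. H3K4me1 peaks touch at least 94.9% of elements in every library, while H3K4me3 stays at or below 31.1% of them and at or above 83.1% of stable proximal regions.

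The treatments did not separate in any of these shares. Doxycycline minus DMSO was −1.01 percentage points for H3K4me1, −1.39 for H3K4me2, −1.51 for H3K4me3 and −0.18 for H3K27me3, with SDs within a treatment of 0.318 (H3K27me3, doxycycline) to 15.9 points (H3K4me2, DMSO). Exact two-sided permutation over the 20 assignments gave p = 0.4, 1, 0.6 and 0.8, each 1 after adjustment over the 4 marks, and this design allows no p below 0.1. H3K4me1 was lower in doxycycline in 3 of 3 same-numbered pairs. When peaks had to cover at least 50% of an element, the H3K4me1 difference was −6.96 points. The libraries then gave 89.5, 77.5 and 78.0% in DMSO and 83.5, 68.7 and 71.8% in doxycycline, so the groups overlapped.

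Compared with stable proximal regions, elements carried H3K4me1 more often and the other marks less often. The difference averaged 4.59 points for H3K4me1 (96.8 ± 1.36% of elements against 92.2 ± 3.37%, SD, n = 6 libraries; two-sided exact sign-flip p = 0.031), −19.1 points for H3K4me2, −57.4 points for H3K4me3 (27.3 ± 4.56% against 84.7 ± 1.04%) and −1.51 points for H3K27me3. Each kept its sign in 6 of 6 libraries, with an exact p of 0.031, the smallest that 64 sign flips can give, and the same value after adjustment over 8 comparisons. The size of the H3K4me1 difference depended on the measure, at 29.2 points in the central 1 kb and 33.0 points when peaks had to cover at least 50% of a region. With 50% cover the H3K27me3 difference shrank to −0.121 points (adjusted exact p = 0.107).

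Compared with the 60385 variable distal regions, which met the distance and length limits but were missing from at least 1 H3K27ac list, elements carried more of every mark. H3K4me1 was 45.9 points higher, H3K4me2 60.4 points, H3K4me3 25.1 points and H3K27me3 0.456 points, each in 6 of 6 libraries (exact sign-flip p = 0.031, adjusted 0.031). Variable distal regions were chosen by missing H3K27ac calls, and 33179 of them were in 1 list. The part of weaker H3K27ac in these differences was not tested. Variable distal regions were also short, with a median of 821 bp, and a longer region has more room for a peak. Within the central 1 kb the differences were 40.9 points for H3K4me1, 48.8 for H3K4me2 and 19.1 for H3K4me3 (adjusted exact sign-flip p = 0.036 each). That of H3K27me3 turned to −0.27 points (adjusted exact p = 0.125).

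The combination of marks was uneven. The most frequent was H3K4me1 in all 6 libraries with H3K4me2 in some and neither H3K4me3 nor H3K27me3 in any, at 5595 elements (39.8%). H3K4me1 and H3K4me2 in all 6 with H3K4me3 in some followed at 2311 (16.4%), then the same pair with no H3K4me3 at 2091 (14.9%) and all 3 methyl marks of H3K4 in all 6 libraries at 1877 (13.4%). H3K27me3 in all 6 libraries was seen at 94 elements, of which 79 also had H3K4me3 in all 6. These 94 had 81 different nearest genes, with 3 elements each at GATA5 and FOXD4L5. Genes with 2 included TPTE, NBPF15, NBPF20, KCNJ18, CNTNAP3C and OR11H1. How uniquely reads map to these 94 elements was not measured.

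Marks were centred on the elements. At the midpoint, 84.0% of elements were covered by an H3K4me1 peak, averaged over 6 libraries, against 83.8% by H3K27ac, 42.4% by H3K4me2, 15.0% by H3K4me3 and 0.65% by H3K27me3. At 5 kb to the right these were 18.8, 11.9, 4.22, 1.42 and 1.61%, so H3K27me3 was the mark with less cover at the midpoint than beside it. At stable proximal regions H3K4me1 cover was 42.9% at the midpoint and 54.6% at 1 kb to the right, where elements fell from 84.0 to 61.2%.

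**Figure D2:**
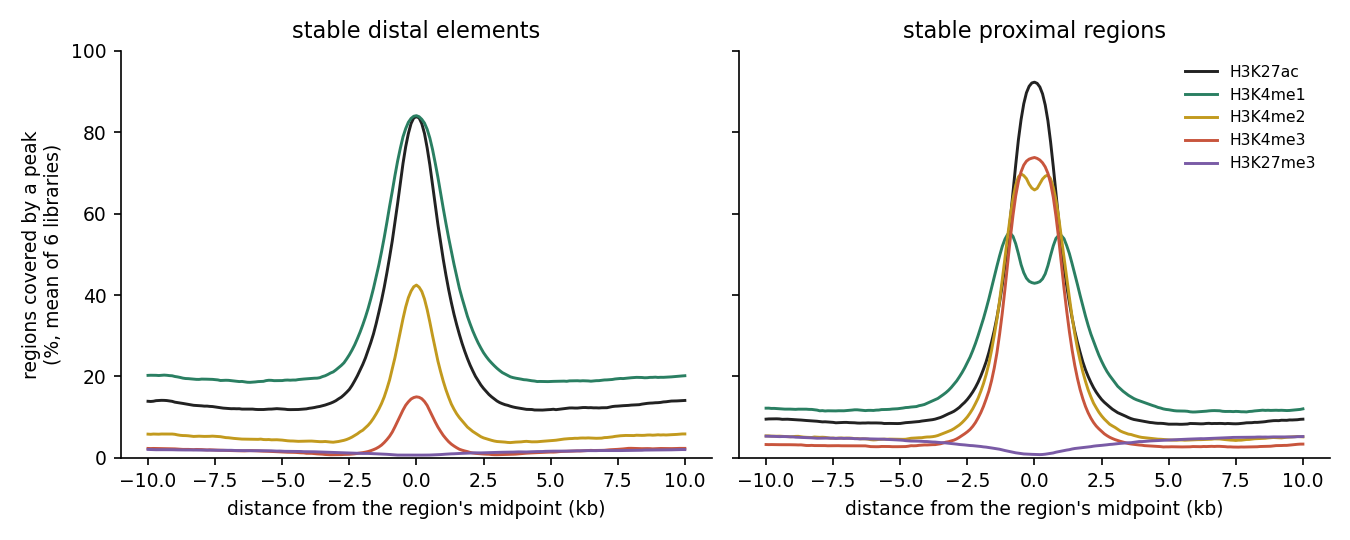
Share of regions covered by a peak of each mark (y axis, %, mean of 6 libraries) against distance from the region's midpoint (x axis, kb, not oriented by strand) for stable distal elements (left) and stable proximal regions (right). H3K4me1 has a single maximum of 84.0% at the midpoint of elements and a dip to 42.9% at the midpoint of proximal regions.

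H3K4me3 went with starts of non-coding genes and with base composition. Of the 2536 elements with H3K4me3 in all 6 libraries, 34.3% had the start of a long non-coding RNA within 1 kb, against 5.93% of the 8751 with none and 11.9% of all elements. Their central 300 bases had a median of 56.7% G and C and 10 CpG, against 46.3% and 3 CpG. H3K4me1 in all 6 libraries was less frequent in the first set, at 83.3% against 92.6%, and H3K4me2 in all 6 more frequent, at 95.8% against 24.4%. Median lengths were 2666 and 3246 bp.

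When elements were ordered by mean H3K27ac percentile and cut into 5 sets of 2810, H3K4me2 and H3K4me3 were called more often in each next set, whereas H3K4me1 was not. H3K4me2 was called at 43.3% of the lowest set (mean over 6 libraries) and 97.6% of the highest, and H3K4me3 at 3.61 and 70.3%. H3K4me1 stood at 93.6% in the lowest set and 96.7 to 98.1% in the others. H3K27me3 was called at 0.765% of the lowest and 2.87% of the highest set. Median length was also greater, 4853 bp in the highest against 2756 bp in the lowest set, and its part in these shares was not tested.

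**Figure D3:**
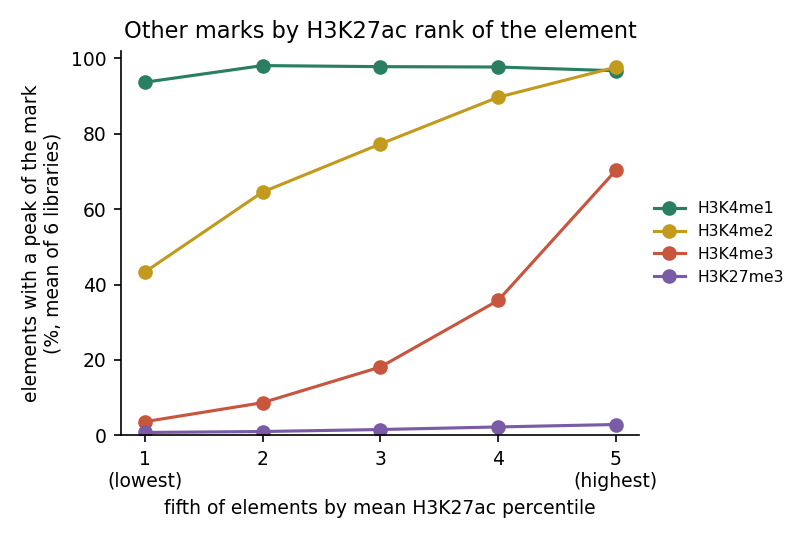
Share of elements with a peak of each mark (y axis, %, mean of 6 libraries) in 5 sets of 2810 elements from the lowest to the highest mean H3K27ac percentile (x axis). H3K4me3 climbs from 3.61 to 70.3% and H3K4me2 from 43.3 to 97.6%, while H3K4me1 stays between 93.6 and 98.1%.

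Elements were spread unevenly over genes. Of 19970 protein-coding genes, 10328 (51.7%) had at least 1 element within 100 kb of a start site, with a median of 1 and a highest value of 31, and 134 genes (0.671%) had 10 or more. Assigned to the gene with the nearest start site, the elements fell to 5085 genes (25.5%), of which 861 held the first 50% of elements. With neighbours joined across gaps of up to 12.5 kb, 8188 elements stood alone and 746 groups of 3 or more held 2754 (19.6%). Groups of 10 stood at ZFHX3 (chr16:72901011-73029328) and MED27 (chr9:131967872-132059899).

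By nearest start site, the gene with the most elements was TPTE, a testis-expressed phosphatase gene, with 43. These lay between 5.13 and 10.4 Mb of chromosome 21, on its short arm, at least 106 kb and at the median 3662 kb from the gene. How uniquely reads map to this arm was not measured. Of the 43, 36 had H3K4me3 in all 6 libraries. The others of the first 15 had their elements closer and rarely with H3K4me3 in all 6 libraries (0 to 6 elements each). PLXNA2, a semaphorin receptor of axon guidance, had 37. AUTS2, a neurodevelopmental chromatin regulator, had 34, every midpoint in an intron of a coding gene. ZNF608 had 34 and the homeobox factor ZFHX3 33. BCOR, a corepressor of a variant Polycomb complex, had 32. ALK, the receptor tyrosine kinase that is a driver of neuroblastoma, had 30, with 24 within 100 kb of its starts, but at a low median percentile of 10.6. MED13L, a subunit of the Mediator kinase module, had 30, the secreted factor TAFA5 27 and TENM4, a teneurin of neuronal adhesion, 26. The acid-sensing channel ASIC2 had 25. LRFN2, a synaptic adhesion protein, MACROD2 and TLE3, a Groucho-family corepressor, had 23 each, and EIPR1 had 22.

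The adrenergic factors had elements at 17 of 20 genes within 100 kb, with a median of 3 (0 to 11), beside 51.7% and a median of 1 over all protein-coding genes. EYA1, a transcriptional coactivator and phosphatase, had 11. HAND2, ISL1, KLF7, KLF13, HEY1 and ZNF536 had 4 each, GATA2, GATA3 and TBX2 3 each, INSM1, SIX3 and DACH1 2 each, and SOX11 and SATB1 1 each. PHOX2A, HAND1 and TFAP2B had none. By nearest start site GATA3 had 21, SOX11 and EYA1 14 each and HAND2 10. With windows of 50 and 200 kb the list's median was 1 and 6, against 0 and 1 over all genes.

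Genes of catecholamine synthesis and storage had elements at 12 of 14 (median 2), led by the granule protein CHGA with 9, then GCH1, an enzyme of pterin cofactor synthesis, and the granule protein SCG2 with 5 each. Neuronal differentiation genes had them at 20 of 22 (median 2), led by ALK with 24, MAP2, a dendritic microtubule protein, with 7 and SYT1, a synaptic calcium sensor, with 5. The list of LSD1, CoREST, HDAC and ETO-family genes with their E-protein partners had them at 12 of 17 (median 2), among them GSE1 with 9 and CBFA2T2, a paralogue of RUNX1T1, with 6. RUNX1T1 had 1. Mesenchymal factors had them at 12 of 20 (median 1), led by TCF7L2 with 9, FOSL2 with 5 and TBX18 with 4. Cytosolic ribosomal protein genes had them at 20 of 30 (median 1), among them RPL3 with 6 and RPS14 with 3.

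Among genes of other cell types, lymphocyte markers had elements at 7 of 12 (CD2 and PAX5 with 5 each, CD4 with 2), epithelial markers at 4 of 12 (GRHL2 with 7, ELF3 and EPCAM with 6 each), muscle markers at 8 of 12 (TNNT2 with 3, ACTA1 and NPPA with 2 each) and hepatocyte markers at 1 of 12 (APOB with 2, while ALB and APOA1 had none). An element within 100 kb need not act on the gene counted. MYCN had no element within 200 kb: 54 merged H3K27ac regions lay there, of which 36 were in 1 list and none in all 6. MYCN is amplified in KELLY, and the part of copy number in the ChIP and input reads of this window was not tested. A lack of calls in all 6 lists is therefore not a lack of H3K27ac at MYCN. MYCN was added after its values had been seen.

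Ranks of H3K27ac shifted in both directions. In 2377 elements (16.9%) the percentile was higher in all 3 doxycycline than in all 3 DMSO libraries, beside 17.6% of all 28618 regions of 6 lists, and in 3064 (21.8%) it was lower, beside 16.5%. Among stable proximal regions these were 18.5 and 10.5%. The median shift was −0.88 points (25th to 75th percentile −8.58 to 6.37), and the SD within a treatment had a median of 4.98 points in DMSO and 5.19 in doxycycline. The median percentile of elements was 31.6, 32.02 and 32.3 in DMSO replicates 1 to 3 and 30.9, 31.2 and 31.4 in doxycycline replicates 1 to 3, a gap under 1 point between the nearest libraries. Percentiles are relative, so a rise in one class lowers another.

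The balance depended on what the ranks were taken among. Ranked among all peaks of a list, 774 elements (5.51%) were higher and 3904 (27.8%) lower, beside 4.95 and 22.1% of all 28618 regions. Taking the same sign in all 3 same-numbered pairs (replicate block), 3580 (25.5%) were higher and 4435 (31.6%) lower, beside 27.8 and 25.7%. Among the 25% of elements with the highest mean percentile 15.3% were higher and 29.1% lower, and among the lowest 25% these were 12.47 and 10.9%. Over all 28618 regions at any percentile, 17.6% were higher and 16.5% lower. Sets of equal percentile among all regions were not counted, and the sets were cut on the percentiles whose shifts were counted. These shares therefore cannot be read as particular to strong or weak elements.

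**Figure D4:**
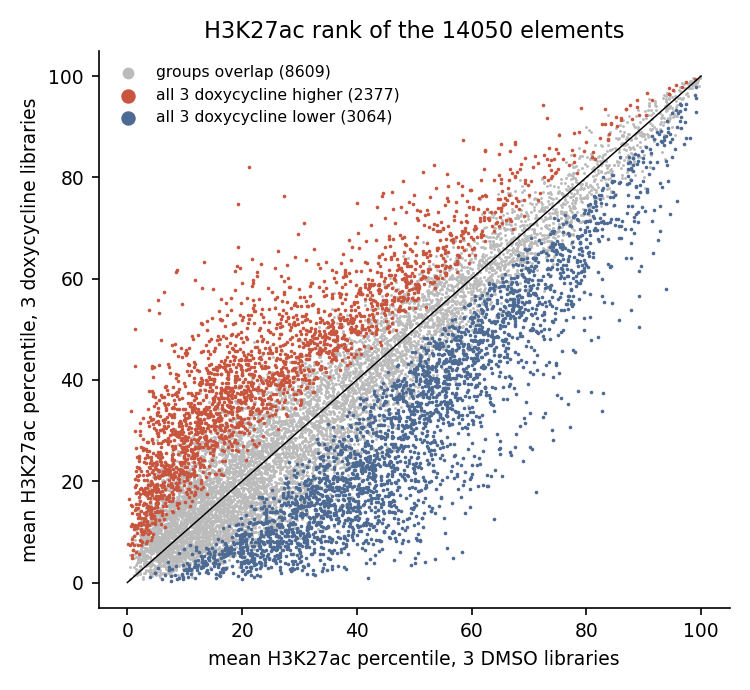
Mean H3K27ac percentile of each element in 3 doxycycline libraries (y axis) against that in 3 DMSO libraries (x axis), with the line of equality. Red points are the 2377 elements with all 3 doxycycline libraries above all 3 DMSO libraries, blue points the 3064 with all 3 below, and grey points the 8609 whose groups overlap.

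Among elements whose groups did not overlap, the largest positive shift was at SDK2, which encodes a synaptic adhesion protein, in an intron (chr17:73530561-73535171). Its percentiles were 27.9, 24.5 and 11.3 in DMSO and 83.4, 80.8 and 82.0 in doxycycline. Its fold enrichment was 2.74, 2.43 and 1.98 in DMSO and 8.73, 6.47 and 5.39 in doxycycline. Separation of the percentiles was set by the choice of elements without overlap. Fold enrichment, taken from the same 6 lists, was also higher in every doxycycline library than in every DMSO library. An element 312 kb from TBX3, a T-box factor (chr12:114996600-115009021), went from 22.8, 24.1 and 11.01 to 73.8, 78.6 and 72.0. The others of the 5 were near ASAP1 (mean shift 53.1 points), KCNE4, a potassium channel subunit (chr2:223295890-223300225, 52.8 points), and within ZFHX3 (chr16:73328786-73331107, 51.0 points). All 5 had H3K4me1 in 6 of 6 libraries, beside 92.1% of all elements, and 4 of them had H3K4me3 in none, beside 62.3%. In DMSO replicate 3 the −log10 q of the 5 ran from 1.35 (ZFHX3) to 2.51 (SDK2), where the lowest of the list was 1.01. None of the 5 met a q of 0.001 or less in every list.

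The largest negative shift was in an intron of SERINC5, a membrane protein gene (chr5:80201032-80208215). Its percentiles were 70.5, 75.4 and 67.7 in DMSO and 17.4, 13.8 and 22.1 in doxycycline, and its fold enrichment 7.19, 6.81 and 4.80 against 3.04, 2.56 and 2.77. The element in NOX5, an NADPH oxidase gene (chr15:68990323-68993274), went from 58.8, 56.3 and 59.8 to 4.65, 5.43 and 8.18. Elements near HAS2, a hyaluronan synthase (mean shift −52.1 points), in SEPTIN8 (chr5:132787020-132791210, −51.5) and near DPH6 (chr15:35841142-35845614, −49.0) followed. By the rule, all 5 were called in every H3K27ac list of both treatments, but weakly in doxycycline. In doxycycline replicate 2 their −log10 q ran from 1.86 (DPH6) to 2.75 (SERINC5), where the lowest of the list was 1.00. None of the 5 met a q of 0.001 or less in every list. These elements had no H3K4me3 in any library, as did 62.3% of all elements, and H3K4me1 in all 6, as did 92.1%.

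The strongest element within 100 kb was also followed at 15 adrenergic genes. An element 80.1 kb from GATA2 and 52.7 kb from RPN1 (chr3:128573270-128574536) had H3K27ac percentiles of 19.2, 20.4 and 14.9 in DMSO and 51.4, 48.0 and 47.6 in doxycycline, all 3 higher. The groups overlapped at HAND2 (20.6, 21.0 and 8.93 against 27.8, 20.4 and 33.6) and at GATA3 (55.6, 60.1 and 67.4 against 48.0, 45.9 and 60.0). At TBX2, ISL1, INSM1, SOX11, EYA1, SIX3, DACH1, SATB1, KLF7, KLF13, HEY1 and ZNF536 mean shifts ran from −12.1 (ZNF536) to 17.5 points (SOX11), with overlapping groups. Within same-numbered pairs, GATA3, INSM1, SATB1, KLF7, HEY1 and ZNF536 were lower in doxycycline in 3 of 3 and ISL1 higher in 3 of 3, beside 25.7% of all 28618 regions lower and 27.8% higher in this way.

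Over all elements, 16.9% were higher and 21.8% lower without overlap, and the lists are given beside these shares. Of the 59 elements within 100 kb of adrenergic genes, 8 were higher (13.6%) and 4 lower (6.78%), and of 31 at mesenchymal genes 4 were higher and 4 lower (12.9% each). The catecholamine list had 7 higher (19.4%) and 5 lower (13.9%) of 36. The neuronal list had 12 (17.1%) and 11 (15.7%) of 70. The corepressor list had 12 (22.2%) and 9 (16.7%) of 54, and ribosomal protein genes 11 (30.6%) and 6 (16.7%) of 36. Among markers of other cell types, 1 of 16 was higher and 2 lower at lymphocyte genes, 2 and 7 of 24 at epithelial genes, 2 and 5 of 13 at muscle genes and 0 and 2 of 2 at hepatocyte genes. These numbers are small, and no list was tested against the rest. Of the genes with most elements by nearest start site, TPTE had 13 higher and 0 lower of 43, all at least 106 kb away on the short arm. AUTS2 had 9 and 1 of 34 and ZFHX3 10 and 4 of 33, whereas ZNF608 had 5 and 10 of 34 and PLXNA2 6 and 9 of 37. At MED27 the group of 10 had 6 higher and 0 lower.

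The other marks at the elements were then compared between treatments, on ranks among the regions that each mark had in all 6 of its lists. With limma, no H3K4me1 region at an element passed an adjusted p of 0.05, among 13036 at elements and 58979 tested (0% called in each direction), and 1212 of the 13036 (9.30%) had an unadjusted p under 0.05. For H3K4me3 none of 2594 passed (0% of 19562 in each direction, 394 or 15.2% at unadjusted p under 0.05), and for H3K27me3 none of 190 (0% of 16369, 5 at unadjusted p under 0.05). For H3K4me2 1 of 7371 regions at elements passed, beside 0.00326% higher and 0.00652% lower of 30692 regions, with 999 (13.6%) at an unadjusted p under 0.05. The unadjusted shares over all tested regions of a mark were not counted, so those at elements cannot be read as particular to elements.

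That H3K4me2 region lay at chr15:69857362-69858719, nearest to TLE3 among coding starts. Its percentiles among H3K4me2 regions were 0.0163, 0.248 and 0.495 in DMSO and 31.5, 31.9 and 21.1 in doxycycline, a difference of 2.42 ± 0.301 (SE) on the normal-score scale (limma adjusted p = 0.022). The call was lost with the replicate block and without any one library other than DMSO replicate 3.

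H3K4me1 and H3K4me2 at the elements whose H3K27ac rank had moved went the same way as H3K27ac in their medians. At the elements higher in H3K27ac, the median H3K4me1 percentile was 69.4, 68.9 and 66.9 in DMSO and 78.1, 74.9 and 75.3 in doxycycline. At those lower in H3K27ac it was 79.0, 75.4 and 75.7 in DMSO and 70.1, 67.2 and 66.8 in doxycycline. The treatments did not overlap in either set, whereas over all elements they did (71.2, 68.7 and 68.4 against 69.7, 67.3 and 67.2).

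For H3K4me2 the medians were 24.5, 26.0 and 27.6 in DMSO and 34.8, 34.2 and 30.6 in doxycycline at the first set, and 29.7, 30.2 and 32.4 against 25.2, 26.6 and 24.5 at the second, again without overlap. For H3K4me3 the first set had 26.6 to 27.2 in DMSO and 27.8 to 28.1 in doxycycline, and in the second set the groups overlapped (20.2 to 21.4 against 20.3 to 21.5). These counted 2272 and 3000 H3K4me1 regions, 1275 and 1846 H3K4me2 regions and 415 and 501 H3K4me3 regions. The libraries are other than those that chose the sets, but same-numbered libraries of different marks may share chromatin. Within a treatment and replicate number, lists of all marks were called against inputs of the same read total, so inputs may be shared. The part of a shared input was not tested, and these medians are given without a test.

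**Figure D5:**
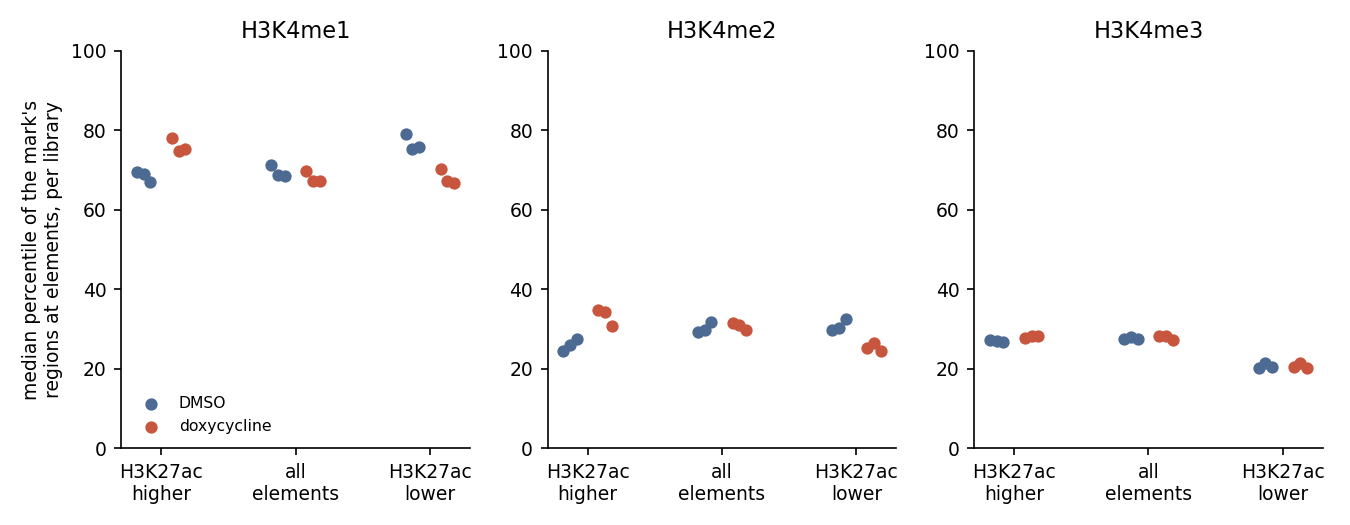
Median percentile of H3K4me1, H3K4me2 and H3K4me3 regions (y axis, per library) at elements whose H3K27ac rank was higher in doxycycline, at all elements and at those whose rank was lower (x axis), in 3 DMSO and 3 doxycycline libraries (points). For H3K4me1 the doxycycline points lie above the DMSO points at the first set (74.9 to 78.1 against 66.9 to 69.4) and below them at the last (66.8 to 70.1 against 75.4 to 79.0).

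Sequence features of the central 300 bases set the elements apart from proximal regions more than from variable distal ones. The median content of G and C was 48.0% in elements, 61.3% in stable proximal regions, 46.0% in variable distal regions and 58.7% in 35116 RefSeq promoters of the same length. CAGATG, an E-box form bound by HAND2 with E proteins, was in 23.3% of elements, 13.0% of stable proximal regions, 23.4% of variable distal regions and 14.7% of promoters. CAGGTG, an E-protein box, was in 22.6, 22.97, 22.8 and 20.6%. The GATA-factor letters AGATAA were in 18.6, 8.19, 20.2 and 10.3%, and TAATNNNATTA, a pair of facing homeodomain sites, in 1.36, 0.360, 1.24 and 0.365%. TGANTCA, which includes the AP-1 site, was in 10.4, 4.74, 10.6 and 7.71%. TGTGGTT, the RUNX site, was in 5.33, 3.24, 5.44 and 4.27%, and CACGTG, the MYC-MAX E-box, in 4.88, 6.20, 3.86 and 7.26%. Short letter matches move with base composition, and matches to different motifs may overlap.

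Between elements that moved in H3K27ac rank, TGANTCA was in 12.8% of those higher in doxycycline, 9.37% of those lower and 10.2% of those in neither set. CAGGTG was in 24.9, 20.4 and 22.8%, and AGATAA in 16.5, 21.3 and 18.1%. CAGATG was in 23.1, 23.9 and 23.1% and TGTGGTT in 5.17, 5.52 and 5.31%. Their median contents of G and C were 48.3, 46.7 and 48.3%.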

How the data were processed

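ChIP-seq peak lists of 5 histone marks (30 libraries, 3 per mark and treatment) were analysed, grouped by the labels; 4 inputs entered only through the calls. Per the study's methods and the processing notes the authors aligned reads to hg38 with Bowtie2, kept mapping quality of at least 30 with SAMtools, and called peaks in each library with MACS2 2.1.1.20160309. The deposited lists of H3K4me1, H3K27ac and H3K27me3 were, per the file headers, broad calls (q 0.05, linked at 0.1) and those of H3K4me2 and H3K4me3 narrow calls (p 1e-05), although the methods state a q of 0.05 for all. The headers and labels describe single-end reads and the methods paired ends. The deposited −log10 q-value and the deposited fold enrichment, a ratio of ChIP to local input, depend on depth and input, so libraries were compared by ranks within a list. Motifs were searched on both strands.

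Members and gene lists were chosen with earlier results of these data known. Named were the 15 genes with most elements by nearest start, all adrenergic factors, the 3 genes with most elements of each other list (10 lists in all; some of the genes are not reported here), and the strongest, adrenergic and most shifted elements. Start sites and exons were those of GENCODE release 44, and overlap meant at least 1 bp. Shares were compared by exact permutation or sign flips over libraries and ranks by limma 3.58.1 (R 4.3.3) on normal scores, with Benjamini-Hochberg adjustment over all regions of a mark. The rest ran in Python 3.11.15 (scipy 1.17.1, pandas 2.3.3, numpy 2.4.6). Interval functions were checked against bedtools 2.31.1 and the limma step on simulated data. Reads per region were not counted, so the error of single values is unknown beyond the spread between libraries.

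The labels do not tie replicate numbers to a batch. With group means removed, libraries of the same number correlated at 0.198, 0.123 and 0.195 for H3K27ac and at 0.187, 0.170 and 0.314 for H3K4me3, so the numbers were taken to pair these libraries. In the other marks at least 1 pair was under 0.1, though those of H3K4me1 (0.122, 0.0751 and 0.0969) lay above all its different-numbered pairs. The main tests and counts between treatments did not use the pairing. It entered as the replicate block and in counts over same-numbered pairs. Alternatives were a q of 0.001, other distance and length limits, 5 of 6 lists, lists of equal length, 50% cover, the central 1 kb, fold enrichment, other windows, a replicate block and leaving out each library.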

Additional observations from a re-analysis of the deposited data

How the results depend on the processing

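Requiring a q of 0.001 or less for H3K27ac peaks left 7349 elements. The other limits on distance, length and lists kept the number within 1.5 times of 14050. By nearest start site, 5085 genes had an element in place of 10328. The H3K4me1 difference between treatments in the share of elements was −6.96 points with 50% cover, in place of −1.01. Doxycycline minus DMSO in the share of elements turned positive for H3K4me1 with lists of equal length (0.268 points), and for H3K27me3 at a q of 0.001 or less (0.221), with 50% cover (0.161), in the central 1 kb (0.135) and with lists of equal length (0.228). Without 1 library each, these differences ran from −7.92 to 7.44 points for H3K4me2, −4.04 to 1.67 for H3K4me3 and −0.497 to 0.218 for H3K27me3. They turned positive without DMSO replicate 1 (7.44) or doxycycline replicate 2 (2.87) for H3K4me2, without DMSO replicate 2 (0.0368) or doxycycline replicate 3 (1.67) for H3K4me3, and without DMSO replicate 3 (0.218) for H3K27me3. The cause was not tested. With the replicate block (sign flips over 3 pairs) the exact p was 0.25, 1, 0.5 and 1 for H3K4me1, H3K4me2, H3K4me3 and H3K27me3, which changed no call, and that of the ranks at H3K4me2 gave 0 calls at elements in place of 1.

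Elements minus proximal regions was −0.121 points for H3K27me3 with 50% cover, and elements minus variable distal regions −0.0742 with 50% cover and −0.27 in the central 1 kb. Leaving out 1 library allows no exact p below 0.0625, so every class comparison then missed 0.05. Against proximal regions the differences ran from 4.08 to 5.13 points (H3K4me1), −22.1 to −17.2 (H3K4me2), −58.0 to −56.3 (H3K4me3) and −1.77 to −1.25 (H3K27me3). Against variable distal regions they ran from 44.1 to 47.9, 59.6 to 61.6, 24.4 to 26.4 and 0.393 to 0.489. H3K4me2 regions called at elements ran from 0 to 1 without 1 library. The number of elements with a rank shift, 5441, stayed between 4678 and 8015 under the alternatives, those that leave out 1 library and the replicate block having been added after seeing the data. The lowest −log10 q in a narrow list was 3.09, so the stricter q changed nothing for H3K4me2 and H3K4me3. Broad calls merge nearby enrichment, so lengths and midpoints depend on the caller, and depth was lower in doxycycline.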
